A study of Homo sapiens with 6 samples.

Results

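The globin genes of the alpha and beta clusters were followed in RNA-seq libraries of a human neuroblastoma line. The members are the 10 genes HBZ, HBM, HBA2, HBA1 and HBQ1 of the alpha cluster and HBE1, HBG2, HBG1, HBD and HBB of the beta cluster, found by symbol among 40111 genes. The family was selected on FPKM values of these libraries, after HBB, HBA2 and HBA1 had been seen to differ between knockdown and control, so the members' values in that contrast are given as a description, with no test. The libraries are labelled as BE(2)-M17 cells, a cloned neuroblast line, with 3 control libraries (genotype NC) and 3 libraries from cells carrying a CRISPR-Cas9 knockdown of LINC00894, a long non-coding RNA. No treatment, time point or number of clones is given for either group. Separate cultures are not mentioned in the labels, so the p-values given here cover the spread among these 6 libraries alone, which may be technical.

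Hemoglobin is the oxygen carrier of red cells, a tetramer of alpha-type and beta-type chains that each hold a haem group. Its genes lie in one cluster per chain type and are switched in order during development, from embryonic (HBZ, HBE1) through fetal (HBG1, HBG2) to adult chains (HBA1, HBA2, HBB and the minor HBD). Transcription at high level is a property of the erythroid lineage, under factors such as GATA1 and KLF1, and mature red cells carry globin mRNA into the blood.

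The alpha cluster genes lie on the plus strand of chromosome 16 and the beta cluster genes on the minus strand of chromosome 11 (GRCh38, GENCODE 29). HBB spans 5225464 to 5229395, HBA2 172876 to 173710 and HBA1 176680 to 177522. All 10 members are annotated as protein-coding. The HBG2 and HBE1 models carry distant upstream exons and span 252416 and 237308 bases, so reads under these names need not come from the globin gene itself. The same holds for HBM, whose model spans 12877 bases and shares 410 of its 916 exonic bases with HBZ and the pseudogene HBZP1. HBE1 shares 37 exonic bases with HBG2, HBZ shares 205 with HBM, and HBD shares 88 with the pseudogene HBBP1, and the library protocol keeps no strand.

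Promoter sequences were matched for 2 of the 10 members, HBD and HBM, from RefSeq on GRCh38.p14. Both are low members whose few reads were unevenly spread over the knockdown libraries. Each runs from 250 bases before the start of transcription to 50 bases after, on the gene's own strand. Capitals mark 5 short motifs searched on both strands: CCAAT (known to be bound by NF-Y), CACCC (by KLF-type factors), GATAA (by GATA factors), and TATAAA or its globin variant CATAAA (by the TATA-binding protein).
HBD, chr11:5234434-5234733, minus strand: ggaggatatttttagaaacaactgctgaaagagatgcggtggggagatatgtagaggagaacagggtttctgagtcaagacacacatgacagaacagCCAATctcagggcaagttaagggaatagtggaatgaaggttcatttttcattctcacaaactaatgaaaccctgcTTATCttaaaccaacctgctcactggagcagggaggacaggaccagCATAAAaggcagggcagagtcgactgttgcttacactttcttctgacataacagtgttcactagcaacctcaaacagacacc
HBM, chr16:165728-166027, plus strand: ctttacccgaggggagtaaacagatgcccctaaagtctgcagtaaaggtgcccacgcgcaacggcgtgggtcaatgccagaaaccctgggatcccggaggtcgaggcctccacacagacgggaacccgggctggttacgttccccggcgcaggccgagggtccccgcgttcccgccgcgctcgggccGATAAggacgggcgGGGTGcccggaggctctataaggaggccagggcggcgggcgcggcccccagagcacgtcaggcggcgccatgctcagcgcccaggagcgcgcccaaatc

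The HBD window held CCAAT from base -153, GATAA on the opposite strand from base -78 and CATAAA from base -32, counted from the first transcribed base as 1. The HBM window held GATAA from base -63 and CACCC on the opposite strand from base -49. None of the matches overlapped. Among 35116 promoters of the same length, 34.6% held CCAAT, 59.9% CACCC, 22.7% GATAA, 11.5% TATAAA and 10.6% CATAAA on either strand.

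Levels are FPKM, assigned reads per kilobase of gene model scaled to library depth, and the reads behind them were worked out from the deposited values. Depth lay between 22898079 and 48089716 assigned reads per library, and 1 read in a gene of 1 kb was worth 0.0208 to 0.0437 FPKM. LINC00894 itself measured 2.00, 2.24 and 2.21 FPKM in controls 1, 2 and 3 against 1.10, 1.30 and 0.867 FPKM in knockdowns 1, 2 and 3, and it fell by 0.93 on the log2 scale (SE 0.17, limma adjusted p = 0.0406). It passed under 5 of 12 alternatives, with adjusted p between 0.00864 and 0.17. It did not pass with the replicate block, with no filter, or when control 2, control 3 or any knockdown was left out. Control 1 stood apart: in 60.8% of genes tested its value was closer to the mean of the knockdowns than to that of the other controls. Of the defining genes of sympathetic neuroblasts, the transcription factor genes GATA3 (4.12 to 5.58 FPKM), ISL1 (3.80 to 5.66 FPKM) and HAND2 (1.26 to 1.71 FPKM) were present and the granule protein gene CHGA was low (0.419 to 0.953 FPKM). The labelled line is known for amplified MYCN, yet MYCN reached only 0.162 to 0.267 FPKM, and the neuronal gene STMN2 stayed under 0.1 FPKM. These marker levels go against the labelled identity, and BE(2)-M17 is used here only as the label.

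**Figure D1:**
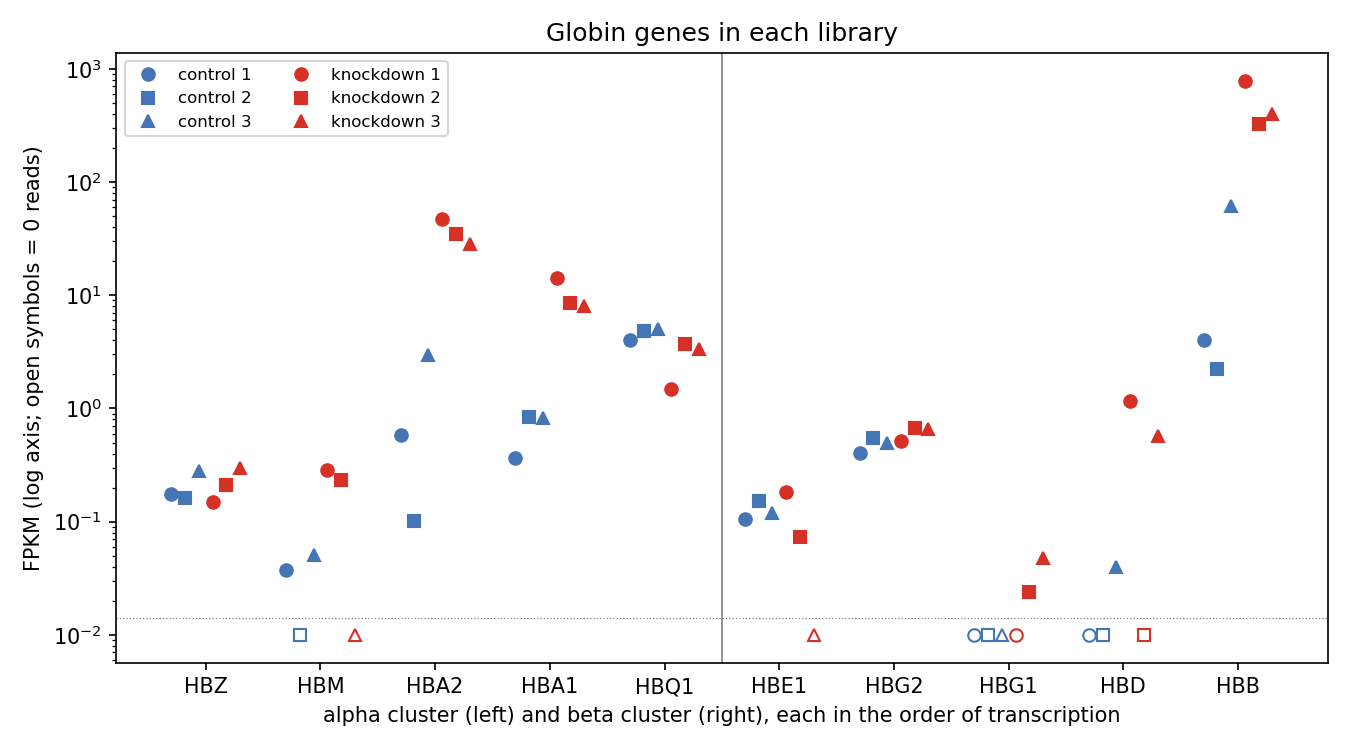
FPKM of the 10 globin genes in each library on a log axis, controls in blue and knockdowns in red, with open symbols for 0 reads. HBB, HBA2 and HBA1 were higher in all 3 knockdowns than in any control, HBQ1 was lower in all 3, and control 3 was intermediate for HBB (61.8 FPKM) and HBA2 (2.97 FPKM).

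The adult chains HBB, HBA2 and HBA1 were the members with high levels in the knockdown libraries, and the embryonic and fetal genes stayed near 0 in every library. HBB, the adult beta chain, read 4.03, 2.22 and 61.8 FPKM in controls 1, 2 and 3 (154, 139 and 3481 reads) against 786, 329 and 400 FPKM in knockdowns 1, 2 and 3 (23458, 12151 and 15017 reads). The groups did not overlap. The lowest knockdown library was 5.32-fold above control 3, and control 3 was itself 15.3-fold above control 1 and 27.9-fold above control 2. The spread among knockdowns was 2.39-fold, with knockdown 1 highest. The log2 difference was 5.80 (limma SE 1.18, n = 3 per group, on the log2(FPKM + 0.1) scale, which understates changes of low genes). It lay at 7.24 without control 3 and at 4.88 without control 2. The limma SE draws on the spread of all genes, and from the HBB values alone the SE was 1.51.

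HBA2, which encodes the adult alpha chain and usually gives more mRNA than HBA1, read 0.578, 0.101 and 2.97 FPKM in the controls against 46.8, 34.7 and 28.4 FPKM in the knockdowns. Its controls were ordered as for HBB, with control 3 far above the others, but its knockdowns fell in another order, with knockdown 3 lowest. HBA1, which encodes the same alpha chain, read 0.368, 0.847 and 0.831 FPKM in the controls against 14.2, 8.62 and 7.99 FPKM in the knockdowns. Here control 3 did not stand above control 2. The log2 differences were 5.59 for HBA2 (limma SE 0.91) and 3.75 for HBA1 (limma SE 0.34). From the values of each gene alone the SEs were 1.16 and 0.42. For HBA2 the difference was 6.61 without control 3 and 4.64 without control 2. With a pseudocount of 1 FPKM the differences of HBA2 and HBA1 were 4.28 and 2.72.

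HBA1 and HBA2 cannot be counted cleanly. Of all stretches of 100 bases in HBA1 transcripts, 79.3% also occur in HBA2 transcripts, and of those in HBA2, 79.1% occur in HBA1 (GENCODE 29). The counter's treatment of reads that match both is not given in the sources used here. Summed, the pair read 0.946, 0.947 and 3.80 FPKM in controls 1, 2 and 3 against 61.0, 43.4 and 36.3 FPKM in the knockdowns. Per length, HBB was above the alpha pair in all 6 libraries and far above it in the knockdowns. HBB and HBD share no stretch of 100 bases.

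HBD, the delta chain of the minor adult hemoglobin, had 0, 0 and 2 reads in controls 1, 2 and 3 and 31, 0 and 19 reads in the knockdowns. Knockdown 2 thus had no HBD read while knockdowns 1 and 3 did, and the groups overlapped at 0. Pooled over libraries the rate was 0.0166 CPM (counts scaled to library depth) in the controls (95% exact Poisson interval 0.00201 to 0.0599) and 0.625 in the knockdowns (0.464 to 0.824). HBM, an alpha-type gene transcribed in red cell precursors, was near the floor, with 1, 0 and 2 reads in the controls and 6, 6 and 0 in the knockdowns. Its pooled rates were 0.0249 (0.00513 to 0.0727) and 0.150 CPM (0.0775 to 0.262). These intervals cover counting error only and not the spread between libraries.

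HBQ1, the theta chain gene, whose function is unknown, was the member that was higher in the controls. It read 4.01, 4.80 and 4.996 FPKM in the controls against 1.49, 3.74 and 3.36 FPKM in the knockdowns. The 3 knockdowns lay below the 3 controls, and control 3 stood with the other controls. The log2 difference was -0.76 (limma SE 0.33, or 0.41 from the HBQ1 values alone), and -0.36 without knockdown 1, the library with the highest HBB. In controls 1 and 2, HBQ1 was about as high as or higher than HBB, and in the knockdowns it was the lowest of the 4 members above 1 FPKM in every library of that group.

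The embryonic and fetal genes had overlapping groups or stood at the floor. HBG2, a fetal gamma chain gene, read 0.406, 0.544 and 0.495 FPKM in the controls against 0.519, 0.671 and 0.661 FPKM in the knockdowns, from 10 to 22 reads a library, and its groups overlapped. HBZ, the embryonic alpha-type chain, lay between 0.161 and 0.279 FPKM in the controls against between 0.151 and 0.2995 FPKM in the knockdowns. HBE1, the embryonic beta-type chain, had 3, 7 and 5 reads in the controls and 4, 2 and 0 in the knockdowns. HBG1, the other gamma chain gene, had 0 reads in the 3 controls and 0, 1 and 2 in the knockdowns, which is at the floor in both groups. Of the transcript stretches of 100 bases in HBG2, 39.5% occur in HBG1, so the split between these genes is uncertain too.

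Over the set, 3 of 10 members had all knockdowns above all controls and 1 had all below. Each of these was among the 5 members that passed the filter on low values. Of the 18548 genes tested, all of which passed that filter, the shares were 23.9% and 14.3%. A log2 difference of at least 3 was reached by HBB, HBA2 and HBA1 and by 0.226% of the genes tested. Since the set was chosen for this contrast, nothing is read from these shares. Only 5 of the 10 members passed the filter of 0.5 FPKM in at least 3 libraries: HBA2, HBA1, HBQ1, HBG2 and HBB. Summed over all 10, the globins took 9.72, 8.83 and 71.5 FPKM in the controls against 850, 377 and 441 FPKM in the knockdowns. That was 0.000885%, 0.000701% and 0.00873% of assigned reads in the controls and 0.108%, 0.0468% and 0.0555% in the knockdowns. The log2 difference of the sum was 4.82 (SE 1.04 from these sums alone, n = 3 per group), and it was 5.80 without control 3 and 4.30 without control 2. In bulk RNA, fewer cells of a type and less RNA per cell cannot be told apart.

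**Figure D2:**
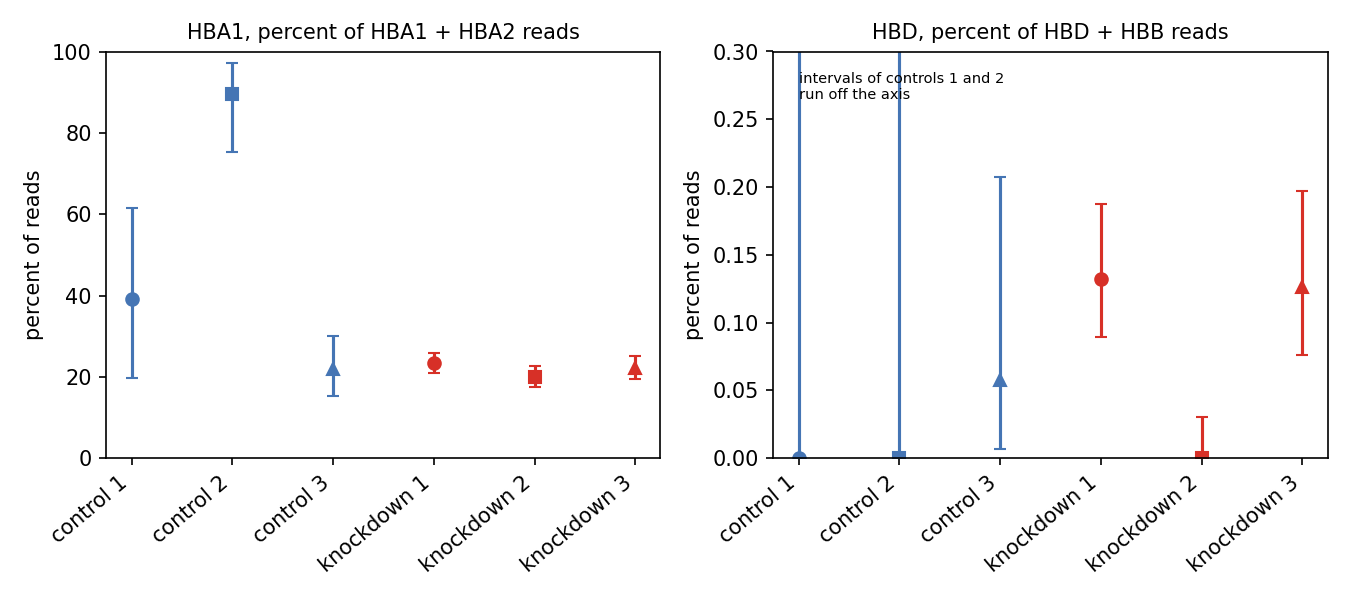
Share of HBA1 in the reads of HBA1 and HBA2 (left) and of HBD in the reads of HBD and HBB (right) per library, with 95% exact binomial intervals, controls in blue and knockdowns in red. Control 3 lies with the knockdowns on the left at 22.1%, and knockdown 2 has no HBD read among 12151 on the right.

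The make-up of the globin reads was compared within each library, apart from their total. HBA1 made up 39.1% of HBA1 and HBA2 reads in control 1 (95% exact binomial interval 19.7% to 61.5%), 89.5% in control 2 (75.2% to 97.1%) and 22.1% in control 3 (15.4% to 29.97%). In the knockdowns it made up 23.4% (21.0% to 26.0%), 20.04% (17.6% to 22.6%) and 22.1% (19.4% to 25.1%). In this share the intervals of controls 1 and 3 overlapped those of the knockdowns, and that of control 2 lay apart from all the others. With reads halved, for mates that may be counted apart, control 2 had 66.9% to 98.7% and control 1 had 10.9% to 69.2%. These intervals overlapped, and that of control 2 then lay apart from control 3 and the knockdowns only.

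For HBD, knockdown 2 had the lowest share among the knockdowns. Its 0 of 12151 HBD and HBB reads give an exact interval that ends at 0.0304% (0.0247% by the limit of 3 counts), where knockdown 1 had 0.132% (0.0897% to 0.187%) and knockdown 3 had 0.126% (0.0761% to 0.197%). Control 3 had 2 reads of 3483, or 0.0574% (0.00695% to 0.207%), which overlaps all 3. In controls 1 and 2 the exact intervals for 0 reads end at 2.37% and 2.62% (1.95% and 2.16% by the limit of 3 counts), so a difference there was not detectable at this depth. Gene values of exactly 2 reads outnumber those of exactly 1 by 21707 to 8578, so both mates of a pair appear to be counted and the intervals are then too narrow. On halved reads the exact interval of knockdown 2 ended at 0.0607%, below the start of that of knockdown 1 at 0.0715%. That end lay above the start of the interval of knockdown 3 at 0.0548%, so the intervals of knockdowns 2 and 3 then overlapped. Overlap alone does not place a difference within counting error, and the difference between these libraries was not tested.

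The alpha share of knockdown 2 lay above those of the other knockdowns, and the value of control 3 was below all of theirs. HBA1 and HBA2 made up 4.70% of HBA1, HBA2 and HBB reads in knockdown 1 (4.44% to 4.98%), 7.73% in knockdown 2 (7.28% to 8.20%) and 5.46% in knockdown 3 (5.11% to 5.82%). Control 3 had 3.76% (3.16% to 4.43%), and controls 1 and 2 had 13.0% (8.42% to 18.9%) and 21.5% (15.7% to 28.3%). On halved reads the interval of control 3 (2.93% to 4.74%) overlapped that of knockdown 1 (4.34% to 5.09%). Knockdown 1 then also overlapped knockdown 3 (4.96% to 5.97%), and knockdown 2 (7.10% to 8.40%) stayed apart from these libraries. The embryonic and fetal genes HBZ, HBE1, HBG1 and HBG2 together made up 7.34%, 11.3% and 0.981% of member reads in the controls and 0.0729%, 0.196% and 0.175% in the knockdowns, from between 18 and 38 reads in every library.

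Red cell genes other than globins were read from the fit over all genes, in which 6.2% of genes were called, 4.14% rising and 2.06% falling (limma, adjusted p under 0.05). Over all genes tested, 32.6% had an unadjusted p under 0.05, limma-voom on the reads called 12.4% higher and 4.5% lower, and limma without control 1 called 28% higher and 15.7% lower, and the counts of this and the next lists stand against these shares. Of 30 such genes 17 were tested, and 0 rose and 0 fell, with 6 at an unadjusted p under 0.05 and 2 rises by limma-voom. Without control 1, 4 rose and 2 fell. Their median log2 difference was 0.26, beside 0.07 over all genes tested. AHSP, the chaperone of free alpha chains, read 0.195, 0.0395 and 0 FPKM in the controls against 0.913, 0.671 and 0.661 FPKM in the knockdowns, from at most 11 reads (log2 difference 2.39, SE 0.54, limma adjusted p = 0.0519). Its groups did not overlap, but unlike HBB it had no read in control 3.

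Other genes named for the red cell differed in their pattern. BPGM, which makes the hemoglobin ligand bisphosphoglycerate, had a log2 difference of 0.62 (limma adjusted p = 0.0596), the ankyrin ANK1 0.76 (0.124) and SELENBP1, a selenium-binding protein abundant in red cells, -0.36 (0.0908). BPGM and ANK1 lay between 11.01 and 20.6 FPKM and between 1.46 and 3.48 FPKM, so both were expressed in libraries with little globin, such as control 2. Among genes too low to test, CA1, the carbonic anhydrase of red cells, read 1.11 FPKM in knockdown 1 and at most 0.130 FPKM elsewhere. SLC4A1, the anion exchanger band 3, read 0.120, 0.0568 and 0.153 FPKM in the controls against 0.545, 0.310 and 0.203 FPKM in the knockdowns. ALAS2, the erythroid enzyme that starts haem synthesis, named after its values had been seen, read 3.58 FPKM in knockdown 1 and between 0.271 and 1.001 FPKM in the others. Knockdown 1 was thus highest for HBB, CA1, SLC4A1 and ALAS2, but CA1 and SLC4A1 were named for their highest value in any library. Among the others of the list, AHSP and BPGM were also highest in knockdown 1. ANK1 was highest in knockdown 2 and TSPO2 in knockdown 3, and SELENBP1 was lowest in knockdown 1.

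**Figure D3:**
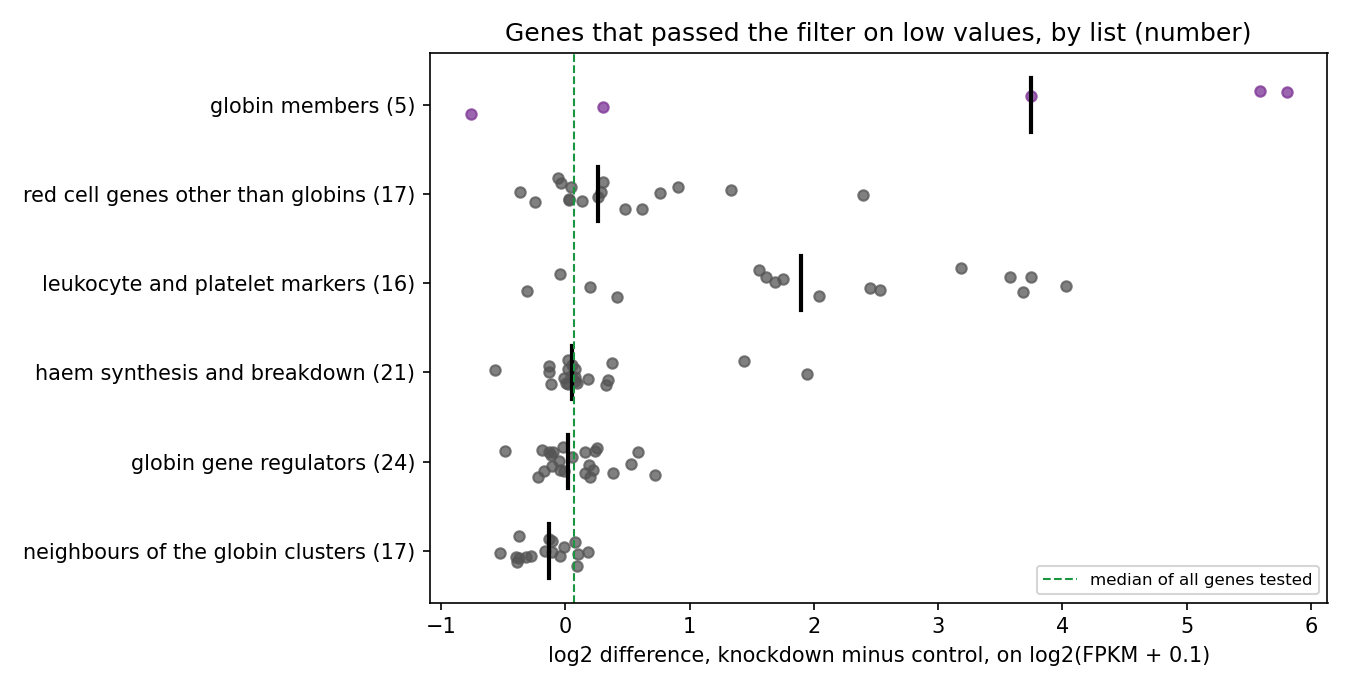
Log2 difference of knockdown and control for the genes of each list that passed the filter on low values, 1 point per gene, with the list's median as a bar and the median of all genes tested (0.07) as a dashed line. The globin members span -0.76 to 5.80, and of the other lists the leukocyte and platelet markers have the highest median, 1.90.

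Markers of white cells and platelets were high in the same 4 libraries as HBB, control 3 among them. Of 32 markers, 16 were tested; 0 passed in limma (6 at an unadjusted p under 0.05, 4 rises in limma-voom, and 4 rises without control 1). Of the 16, 14 had a positive difference and the median was 1.90. Summed over the list, the level was 11.7, 9.70 and 309 FPKM in controls 1, 2 and 3 against 70.4, 190 and 227 FPKM in the knockdowns, with control 3 highest. That rank rests on S100A8, S100A9 and S100A12, which summed to 276 FPKM in control 3. Without them, a sum added after the values were seen, the level was 10.1, 8.82 and 33.3 FPKM in the controls against 26.4, 39.1 and 59.2 FPKM in the knockdowns, and control 3 ranked below knockdowns 2 and 3. Control 3 was at least 4-fold above controls 1 and 2 in 38 genes, 0.205% of those tested. HBB, HBA2 and 10 of the 16 leukocyte and platelet markers were among them. HBB and HBA2 belong to a family chosen on these values. Markers such as S100A12, LYZ and FCGR3B lay under 0.5 FPKM in controls 1 and 2, so they passed the filter only through the other libraries. Nothing is therefore read from these counts against that share. The part of these cells' RNA in the globin values was not tested.

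Single markers did not keep a fixed ratio to HBB. LYZ, the lysozyme of neutrophils and monocytes, followed the globins most closely, with 0, 0.0241 and 1.11 FPKM in the controls against 4.84, 2.27 and 5.52 FPKM in the knockdowns (log2 difference 4.03, SE 0.97, limma adjusted p = 0.0570). CD14, a monocyte receptor, read 0.746, 0.202 and 0.477 FPKM in the controls against 1.67, 1.67 and 1.48 FPKM in the knockdowns (limma adjusted p = 0.0527). CXCR2, a neutrophil chemokine receptor, was too low to test and read 0.0319, 0.0129 and 0.158 FPKM in the controls against 0.285, 1.30 and 2.71 FPKM in the knockdowns, and CSF3R, the receptor for the neutrophil growth factor G-CSF, reached 1.84 FPKM in knockdown 3. CD74, the invariant chain of MHC class II, had a log2 difference of 1.62 (limma adjusted p = 0.0760) and was not raised in control 3. The T cell genes CD3D, CD3E and CD2 had at most 6 reads in any library.

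The neutrophil calcium-binding genes S100A8 and S100A9, chosen after their values were seen, were the most abundant of these markers. S100A9 read 1.25, 0.726 and 202 FPKM in the controls against 35.0, 117 and 133 FPKM in the knockdowns. S100A8 read 0.192, 0.117 and 45.3 FPKM in the controls against 8.19, 24.2 and 24.3 FPKM in the knockdowns. Both were highest in control 3 and, of the libraries that carried them, lowest in knockdown 1, where HBB was highest. HBB over S100A9 in FPKM was 3.22, 3.05 and 0.306 in the controls and 22.5, 2.80 and 3.01 in the knockdowns.

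**Figure D4:**
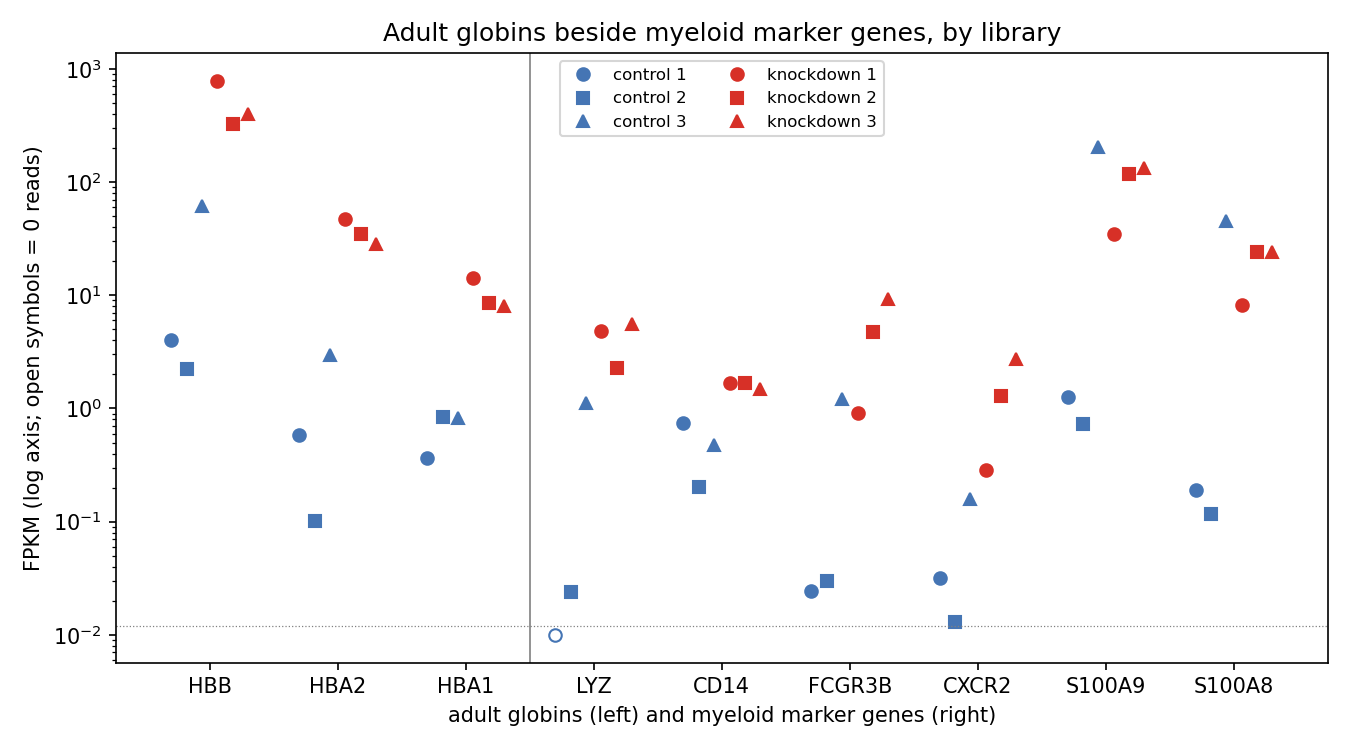
FPKM of the adult globins (left) and of myeloid marker genes (right) in each library on a log axis, controls in blue and knockdowns in red, with an open symbol for 0 reads. S100A9 and S100A8 are highest in control 3 (202 and 45.3 FPKM) and HBB is highest in knockdown 1 (786 FPKM).

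The genes most like HBB, HBA1 and HBA2 over the 6 libraries were ranked by the root mean square difference between centred log2(FPKM + 0.1) profiles. The median over all genes tested was 2.67 log2 units, and the members HBB, HBA2 and HBA1 lay at 0.70, 0.48 and 1.06 from their own mean. Outside the set, MIR3143 was nearest at 0.58, on 0, 0 and 1 reads in the controls and 4, 8 and 7 in the knockdowns. LYZ was second at 0.74. The other 8 were RNU6-1305P, RNU7-38P, RNU7-59P, MIR6068, RNU6-277P, RNU6-670P, H2BC14 and MIR193B, between 1.09 and 1.199. Of the 10, only LYZ had at least 100 reads over the 6 libraries, and the other 9 had between 8 and 37. Among genes with at least 100 reads, a limit set after the values were seen, the nearest after LYZ were MNDA, a myeloid nuclear protein (1.26), the histone gene H3C12 (1.33) and the neutrophil Fc receptor gene FCGR3B (1.43).

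The median difference of haem genes was close to that of all genes. Of 25 genes for haem synthesis, export and breakdown, 21 were tested, 1 rose and 0 fell, with a median of 0.05, and without control 1, 5 rose and 1 fell. The gene that rose was SLC25A38, the mitochondrial carrier that brings in glycine for haem, from 15.1, 15.7 and 15.6 FPKM to 20.1, 19.4 and 18.9 FPKM (log2 difference 0.33, SE 0.06, limma adjusted p = 0.0397, and 0.00487 to 0.17 over 12 alternatives, of which it passed 4). ALAS1, the housekeeping counterpart of ALAS2, had 0.35 and did not pass (0.0849). HMOX1, which breaks haem down, read 56.6, 16.1 and 15.4 FPKM in the controls against 73.3, 59.999 and 63.7 FPKM in the knockdowns (log2 difference 1.44, SE 0.49, limma adjusted p = 0.104). Control 1, low in globin, stood near the knockdowns for HMOX1, and likewise for the haem-binding HPX at 0.800 FPKM against 0.0859 and 0.0956 in controls 2 and 3 and 1.11 to 1.15 in the knockdowns.

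CD163, the macrophage receptor for haptoglobin-bound hemoglobin, read 0.00587, 0.0250 and 0.466 FPKM in the controls against 0.0601, 0.103 and 0.221 FPKM in the knockdowns, from 117 reads in control 3, the highest library. HP, haptoglobin, chosen after its values were seen, was highest in control 3 as well, at 0.442 FPKM against 0.215 to 0.286 FPKM in the knockdowns. FLVCR2, a transporter named for haem, was too low to test and lay between 0.362 and 0.637 FPKM.

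Regulators of the globin genes showed no call in either direction. Of 30 regulators 24 were tested, with 0 called in limma, 6 at an unadjusted p under 0.05, 3 rises by limma-voom and a median of 0.02. Without control 1, 5 rose and 2 fell. The erythroid factors GATA1 and KLF1 were too low to test: GATA1 lay between 0.210 and 0.498 FPKM, and KLF1 between 0.0438 and 0.352 FPKM with its highest value in knockdown 1. IGF2BP1, an RNA-binding protein that favours fetal globin in cultured red cells, had a log2 difference of 0.26 (limma adjusted p = 0.0508), GATA2 0.59 (0.0756), the CCAAT-binding subunit NFYC 0.39 (0.0852) and MYB -0.49 (0.0867).

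Genes beside the clusters had small differences, most of them negative. Of 26 neighbours 17 were tested, 0 were called in limma (5 at an unadjusted p under 0.05, 2 falls in limma-voom and 5 falls without control 1), 4 had a positive difference and the median was -0.13. The values ranged from -0.52 to 0.19. At the alpha cluster, FAM234A had -0.37 (limma adjusted p = 0.0749), POLR3K, an RNA polymerase III subunit, -0.39 (0.101) and ARHGDIG -0.32 (0.111). NPRL3, whose introns hold the alpha globin enhancers, read 3.41, 3.72 and 3.32 FPKM in the controls against 3.23, 3.44 and 3.02 FPKM in the knockdowns, and was chosen after its values were seen. On the beta side, the restriction factor TRIM5 had -0.52 (0.0530). RGS11 and TRIM22, too low to test, reached 0.159 and 0.751 FPKM.

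Globins outside the clusters were too low to test. CYGB, cytoglobin, had 12, 6 and 0 reads in the controls and 23, 23 and 9 in the knockdowns, and MB, myoglobin, had 2, 0 and 2 and then 7, 14 and 3. ADGB, androglobin, had at most 4 reads, and NGB, neuroglobin, was not analysed here. For CYGB and MB control 3 was among the lowest libraries, unlike HBB.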

How the data were processed

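Messenger RNA was profiled in 6 libraries, grouped by their titles. Per the submitters' processing notes reads were aligned with HISAT2; the sources used here give no version, read counter, genome build, annotation or test. The authors deposited FPKM per library, a unit judged from the values, and, per the file headers, a mean read signal per group, a log2 fold change and p-values, raw and adjusted; the authors' fold changes and p-values were not used. A second deposited table repeats some of these genes. Columns of other samples numbered 0.

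Reads were recovered from the FPKM ratios and group means: 100% of values above 0 lay within 0.1 of a whole read. Implied lengths were within 5% of the GENCODE 29 exon union for 80.7% of 18899 genes. Among members they were not for HBZ (1160 against 755 bases), HBG1 (1467 against 1659) and HBD (1152 against 1270). The shared exonic bases given for HBZ and HBD are those of GENCODE 29 and may differ in the models counted. The 18548 genes that reached 0.5 FPKM in 3 or more libraries were fitted with limma 3.58.1 (R 4.3.3) with a trend on log2(FPKM + 0.1), group as the only term, two-sided, Benjamini-Hochberg over all genes. On simulated data the fit recovered 20% of 100 genes changed 2-fold and 100% of 100 genes changed 8-fold, with 10 false calls each time. A count of 0 calls in a list therefore does not show that its genes were unchanged. SEs of single genes are those of limma unless said otherwise, and the SE of the globin sum comes from the library sums alone. Python 3.11.15 with pandas 2.3.3 and scipy 1.17.1 gave intervals. No library pair agreed within sampling noise (chi-square per gene at least 3.77).

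Members and gene lists were chosen with earlier results of these data known. Named were all members, cluster-external globins, genes past the test, up to 4 tested genes of each list by smallest p and up to 2 untested ones by highest FPKM, and the 10 most similar genes; values of a few listed genes are not reported here, but the fits and counts include them. Alternatives were median-of-ratios scaling, a pseudocount of 1 FPKM, no filter, a filter at a CPM of 1, limma-voom on reads, a replicate block, and leaving out each library; chosen after seeing the data were a minimum of 100 reads for similar genes, halved reads for shares and the marker sum without 3 genes.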

Additional observations from a re-analysis of the deposited data

How the results depend on the processing

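HBB, HBA2, HBA1, HBQ1 and the globin sum kept their direction under each alternative run for them. The log2 difference of the sum (4.82) lay between 4.30 and 5.80 without any 1 library and was 4.70 with median-of-ratios scaling, 4.73 with a pseudocount of 1 FPKM and 4.82 with the replicate block. Without 1 library HBB lay between 4.88 and 7.24, HBA2 between 4.64 and 6.61, HBA1 between 3.42 and 3.92 and HBQ1 between -0.999 and -0.36. With a pseudocount of 1 FPKM HBA1 was 2.72. HBZ, near 0 at 0.06, changed sign with median-of-ratios scaling (-0.02), without control 2 (-0.04) and without knockdown 3 (-0.11). The median over the 10 members was 0.59 (0.45 to 0.87 without 1 library), 0.15 with a pseudocount of 1 FPKM and 1.78 with limma-voom on reads, where genes at 0 depend on the prior count. A pseudocount of 1 FPKM left 2 of the 10 most similar genes, and a minimum of 100 reads left 1.

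Calls depended on the processing. In limma over all genes, 1150 calls became 42 with no filter, 2085 with a filter at a CPM of 1, 3130 with limma-voom and 0 with the replicate block (5990 at an unadjusted p under 0.05), and between 0 and 8093 without 1 library, the highest when control 1 was left out and 0 for each of the other 5 libraries. The counts called in the red cell, haem, leukocyte, regulator and neighbour lists were 0, 1, 0, 0 and 0. They were 1, 1, 4, 1 and 1 with the filter at a CPM of 1 and 2, 3, 4, 3 and 2 with limma-voom. A pseudocount of 1 FPKM gave 1, 2 and 1 calls in the red cell, leukocyte and regulator lists. The haem count was 0 with median-of-ratios scaling, with no filter and with the replicate block. Without 1 library the counts ranged from 0 to 6, 6, 4, 7 and 5, each highest without control 1. The cause was not tested, except that fewer or more genes were tested under the filters. Median-of-ratios scaling moved the median of all genes tested from 0.07 to -0.05 and the calls from 768 rises and 382 falls to 338 and 495.

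Same-numbered libraries of the groups deviated with correlations of 0.149, 0.078 and 0.037 and 2 of 3 controls correlated best with their own number, so the numbers are not taken as a pairing and the block is an alternative only. Members under about 30 reads per library are limited by depth.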
